A study of Rattus norvegicus with 52 samples.

Results

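The effect of clofibric acid (CA) on gene expression was examined in microdissected rat liver. The samples were chosen by their labels, as every array hybridised with RNA from microdissected liver, which gave 4 of the 52 arrays of the study. They comprised 2 arrays from untreated rats, 1 array from rats given 0.29% CA and 1 array from rats given 0.54% CA. All animals were F344 rats, an inbred laboratory strain. The study asked how expression profiles of whole and laser capture microdissected liver compare in rats treated with CA. Its other arrays came from 4 preparations of liver sections, each with untreated, 0.29% and 0.54% CA groups: entire sections (8, 8 and 6 arrays), stained sections (8, 7 and 5 arrays), dehydrated sections (1 array each) and sections held for the reference time of laser capture (1 array each). The route and length of treatment, the sex and age of the rats, the region and cell type taken by microdissection, and any amplification of the RNA were not given in the sources used here. Whether the arrays of a group represent different animals is not stated either. The p-values below therefore rest only on the spread between arrays, which may be technical in part. Most of this spread was estimated from entire and stained sections.

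Clofibric acid is the active form of clofibrate, a lipid-lowering fibrate. Fibrates activate the nuclear receptor PPARα, which in hepatocytes of rats and mice switches on genes of peroxisomal and mitochondrial fatty acid oxidation and of microsomal fatty acid hydroxylation, and makes peroxisomes multiply. Laser capture microdissection cuts chosen cells out of a stained, dehydrated tissue section under the microscope and yields little RNA, which is often partly degraded. Each value below is one intensity of a probe set, a group of short oligonucleotides meant to report a transcript, though some probe sets may report several related ones. Because each array averages over all cells taken, fewer cells of a type and less RNA per cell cannot be told apart. The deposited table holds no gene names and no accession in a probe set ID was found in the RefSeq table that was searched, so probe sets are given by ID, with 2 in each direction for a comparison, and no marker check of the tissue could be made.

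The 4 arrays differed in brightness and in RNA measures. Their mean intensities ran from 117 at 0.29% CA to 189.9 at 0.54% CA, with the controls in between, and 1329 to 2140 probe sets exceeded 66, the 75th percentile of all intensities. In entire sections the corresponding count was 2214 to 2607. Between 24.2% and 29.7% of the values of each microdissected array lay below 0, and the 95th percentile of the sizes of those negative values, used here as the noise level, was 55 to 67. The GAPDH 3'/5' ratio, which compares probe sets at opposite ends of the GAPDH transcript and is high where RNA or its copies are truncated, was 14.3 and 9.22 in the controls, 6.20 at 0.29% CA and 3.02 at 0.54% CA. It was therefore lower on both CA arrays than on both controls, while entire sections ranged from 1.18 to 6.49 and stained sections from 2.59 to 18.9. The intensity of 5S ribosomal RNA was 97 and 285 in the controls, 319 at 0.29% CA and 754 at 0.54% CA, above both controls on both CA arrays. The part of these measures in the CA differences cannot be told apart from treatment on 4 arrays alone. A fit over all 52 arrays with the GAPDH ratio as a covariate is given below.

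**Figure D1:**
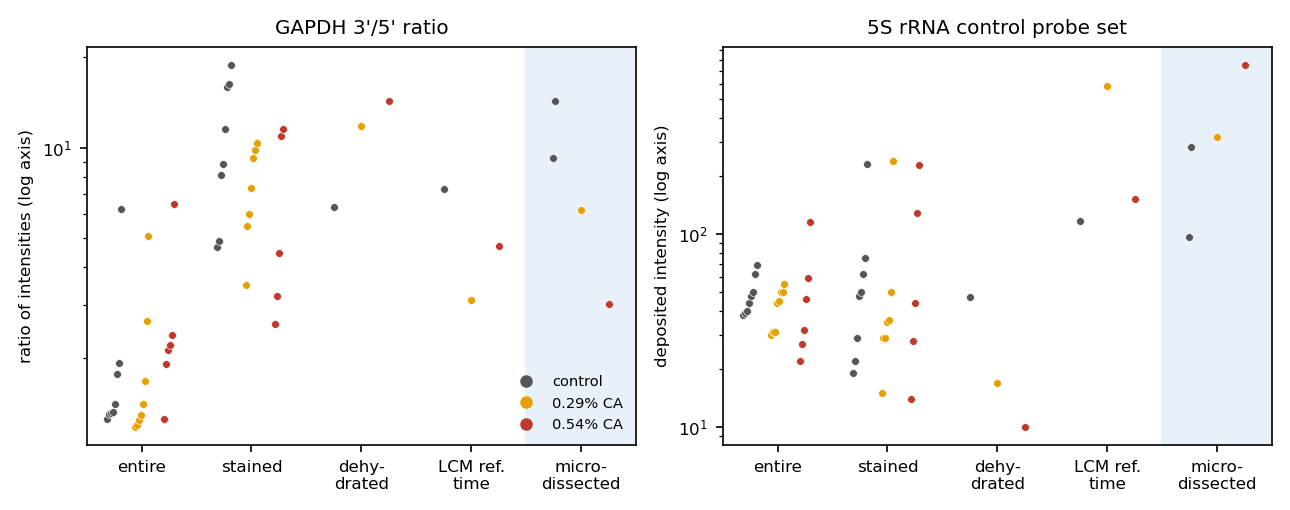
Quality measures of every array (points) by preparation, with colours for the CA dose; the vertical log axes give the GAPDH 3'/5' ratio (left) and the deposited 5S rRNA intensity (right), and arrays of a group are ordered by value. The 2 microdissected CA arrays have GAPDH ratios of 6.20 and 3.02, below the 14.3 and 9.22 of the microdissected controls.

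The housekeeping probe sets showed the same split. GAPDH, a glycolytic enzyme, read 616 and 535 in the controls against 1110 and 1877 on the 0.29% and 0.54% CA arrays at its 3' probe set. At its 5' probe set it read 43 and 58 against 179 and 622. Both CA arrays were thus above both controls, and remained so after quantile normalization and after centring each array on its median. The 3' probe set of β-actin, a cytoskeletal protein, read 103 and 81 in the controls and 101 and 312 on the CA arrays. On this deposited scale the groups overlapped, but on both other scales the CA arrays were higher.

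To ask which transcripts responded to CA, the mean of the 2 CA arrays was compared with the mean of the 2 controls. Among 1425 bright probe sets, those with a mean normalized log2 intensity of at least 7 (an intensity of 128) over the 4 arrays, 97 were higher and 132 were lower with CA (limma, Benjamini-Hochberg adjusted p under 0.05 over all probe sets tested). These 229 made up 16.1% of the bright probe sets, against 12.8% of all 8318 tested (5.72% higher and 7.04% lower). The bright limit applies to the mean of all 4 arrays, so a strongly changed probe set can pass it through its high group alone. Named below, rc_aa893325_at had a mean log2 of 9.64 in the controls and 4.57 with CA. These shares therefore only describe the probe sets so chosen. The spread in this fit was pooled over all 15 groups of the study, so each lone CA array was assumed to vary like the replicated groups. Of the 37 residual degrees of freedom, 19 came from entire sections, 17 from stained sections and 1 from the microdissected controls. Over all probe sets tested, the root mean square of the log2 standard deviation within groups was 0.569, 0.776 and 0.928 in that order. The medians were 0.440, 0.653 and 0.433. When the 4 microdissected arrays were fitted alone, with 2 residual degrees of freedom, limma called 0 of 7129 probe sets, and 576 had an unadjusted p under 0.05. The count of bright probe sets called was 152 without the 0.29% array and 129 without the 0.54% array. It was 98 when arrays were centred on their medians in place of quantile normalization.

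The changes among the called bright probe sets were mostly large. Of the 97 that rose, 69 did so at least 2-fold and 10 at least 8-fold, with a median of 2.59-fold. Of the 132 that fell, 99 did so at least 2-fold and 4 at least 8-fold, with a median of 2.48-fold. Both CA arrays lay beyond both controls for 95 of the 97 and for 131 of the 132. The calls were made on these same arrays, which favours both large changes and such a separation. Over all 1425 bright probe sets, 819 had both CA arrays on one side of both controls, and over all tested the share was 29.7%. All 4 arrays exceeded their noise level for 172 of the 229 called, against 1197 of the 1425 bright probe sets. With the GAPDH ratio as a covariate, 184 bright probe sets were called, 80 higher and 104 lower.

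**Figure D2:**
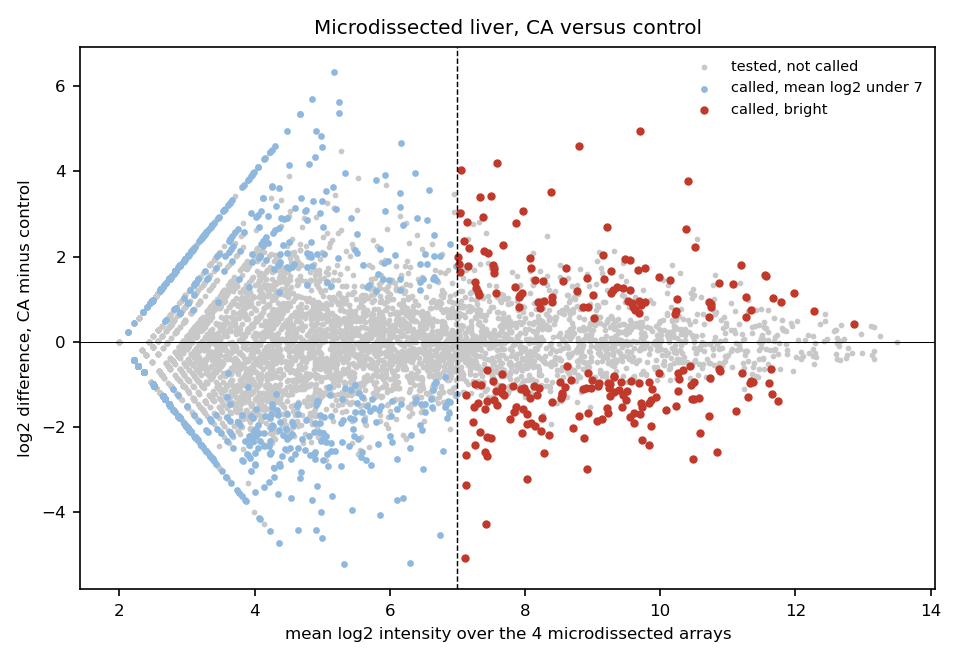
Log2 difference between CA and control in microdissected liver (vertical axis) against the mean normalized log2 intensity over the 4 arrays (horizontal axis), with 1 point per probe set tested and called probe sets coloured. Right of the bright limit of 7, 97 called probe sets lie above 0 and 132 below; left of it, 704 of the 833 called had at least 1 array at the intensity floor.

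The probe set j02749_at had the largest fitted rise among bright probe sets. It read 123 and 70 in the controls, 3490 at 0.29% CA and 6123 at 0.54% CA. The groups were far apart, and all 4 values exceeded the noise level. The rise was 30.9-fold (log2 4.95 ± 0.45 SE, limma adjusted p = 3.47e-11). A second probe set of the same accession read 195 and 256 in the controls and 3810 and 6381 on the CA arrays, a 13.7-fold rise (limma adjusted p = 5.96e-06). Agreement of this kind was not general. Of 128 such groups of 2 or more bright probe sets, 80 (62.5%) moved in a single direction. Among the 27 with at least 1 call, 24 did so, 3 had every probe set called and 0 had calls in opposite directions. In entire sections j02749_at had a control median of 165.5 (117 to 311, n = 8), with medians of 4999 at 0.29% and 4699.5 at 0.54% CA. The rise there was 38.7-fold, and in stained sections 39.3-fold. The difference in log2 effect from entire sections was -0.33 ± 0.49 (SE), with a limma adjusted p = 0.833.

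The next was that of k03249_at, with 49 and 64 in the controls, 931 at 0.29% CA and 3358 at 0.54% CA. Neither control exceeded its noise level, so the rise was at least 22.3-fold; the fitted log2 value was 4.60 ± 0.82 (SE, limma adjusted p = 9.93e-05). With values floored at the noise level of each array, an analysis added after seeing the data, it was 5.42, above the 4.94 of j02749_at. Such a floor raises control 1 from 49 to 57 and leaves control 2 at 64, so before normalization it could not enlarge the rise. The value of 5.42 is therefore not read as a larger effect. The 0.54% array was the brighter of the CA arrays, but after normalization the log2 difference between doses was 0.89 ± 1.16 (SE), within the pooled spread (limma adjusted p = 0.940). Control levels of this probe set varied with the preparation. They were 372 to 839 in entire sections and 16 to 442 in stained sections, where the median was 58, close to the microdissected controls. The CA effect was 9.59-fold in entire and 24.2-fold in stained sections, and the microdissected effect did not differ from either at the threshold (differences in log2 of 1.34 ± 0.90 and 0.00 ± 0.90 SE, limma adjusted p = 0.465 and 1).

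The largest fall was that of rc_aa893325_at. It read 705 and 349 in the controls, 12 at 0.29% CA and 27 at 0.54% CA. The groups did not overlap, and both CA values were below the noise level, so the fall was at least 8.81-fold. The fitted log2 difference was -5.08 ± 0.76 (SE, limma adjusted p = 4.44e-06). Entire sections went from a control median of 912 to 92 at 0.29% and 70 at 0.54% CA. Stained sections went from 944 to 77 and 61. The fitted falls there were 12.9-fold and 18.0-fold, and neither differed from the microdissected fall at the threshold (limma adjusted p = 0.392 and 0.743).

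The next largest fall was that of u39549_at, which read 590 and 366 in the controls, 62 at 0.29% CA and 12 at 0.54% CA. The 0.54% value was below the noise level, and the fall was at least 7.71-fold, with a fitted log2 difference of -4.28 ± 0.62 (SE, limma adjusted p = 2.62e-06). The CA arrays were unequal: the fitted fall was 5.31-fold at 0.29% and 71.1-fold at 0.54%, the latter with its array below the noise level. Without the 0.54% array the log2 difference was -2.41, and without the 0.29% array -6.15. All 4 of these probe sets were called in 17 of 18 alternative analyses. The exception was the fit on the 4 arrays alone, with limma adjusted p = 0.367, 0.376, 0.367 and 0.533 in the order given, the highest of all alternatives for each.

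**Figure D3:**
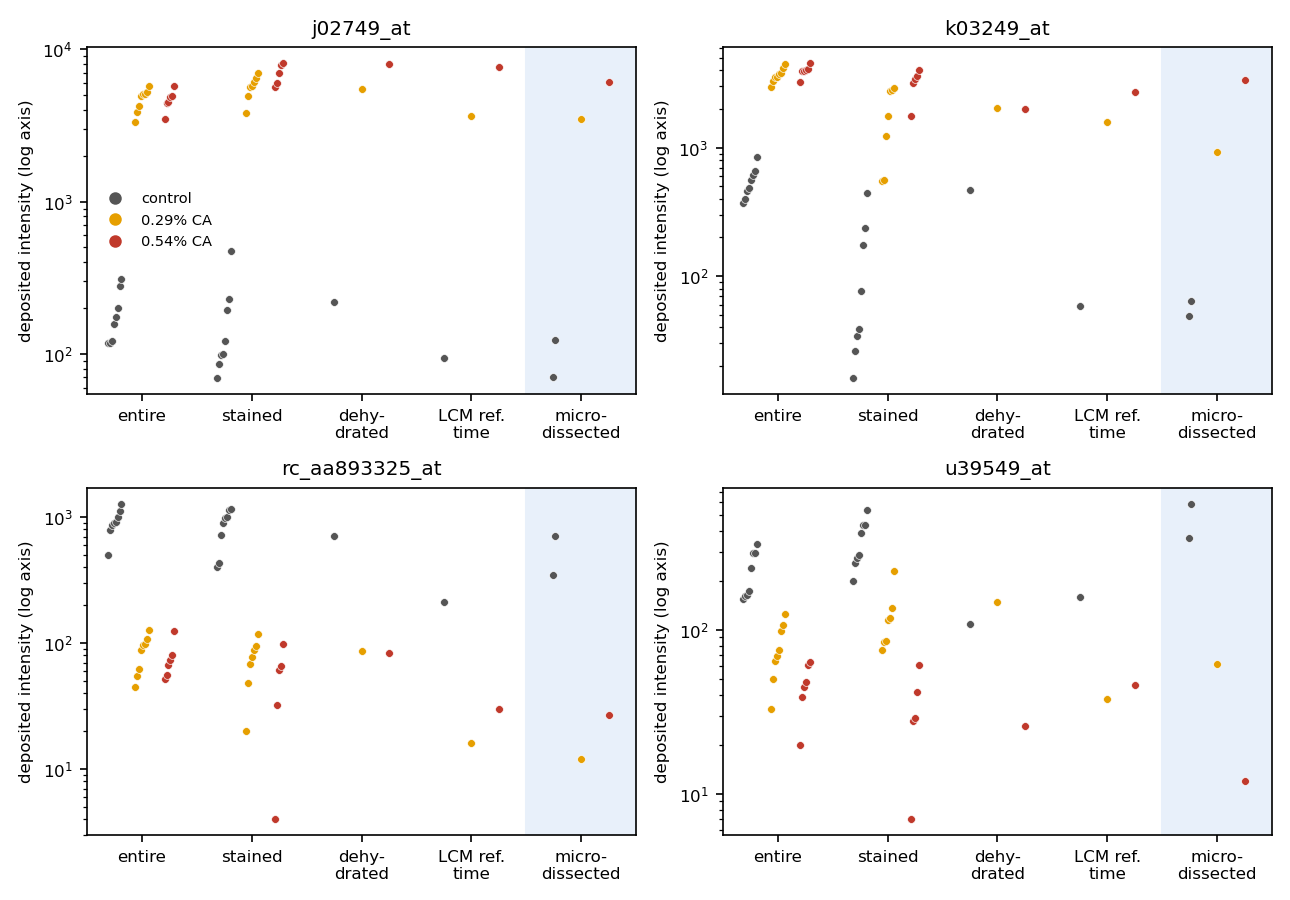
Deposited intensity (log axis) of the 4 named probe sets on every array, by preparation, with colours for the CA dose; arrays of a group are ordered by value, and a stained 0.54% CA array of rc_aa893325_at at -76 is drawn at the floor of 4. For j02749_at the microdissected arrays read 123 and 70 without CA and 3490 and 6123 with CA, and the treated arrays of entire and stained sections read 3348 to 8164.

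Differences between arrays depended on brightness. For bright probe sets, the controls differed from each other by at least 2-fold at 172 of 1425 probe sets (12.1%) and the CA arrays at 141 (9.89%). A control and a CA array differed that much at 282 to 434 probe sets (19.8% to 30.5%). The Pearson correlation of log2 intensities over bright probe sets was 0.883 between the controls, 0.911 between the CA arrays and 0.741 to 0.816 between a control and a CA array. Over bright probe sets, each pair of like arrays was thus closer than any pair across treatment. Over all 8740 non-control probe sets this did not hold. The correlation there was 0.879 between the controls, 0.867 between the CA arrays and 0.838 to 0.876 across treatment. Like arrays were also not always closer for probe sets with a mean log2 intensity from 3 to 5. The median size of a log2 difference was 1.19 between the controls, 1.43 between the CA arrays and 1.35 across treatment. From 9 to 11 these medians were 0.32, 0.29 and 0.50. Of all 1062 called probe sets, 705 (66.4%) had a value at or below the floor of 4 on at least 1 of the 4 arrays, but this held for 1 of the 229 bright ones.

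**Figure D4:**
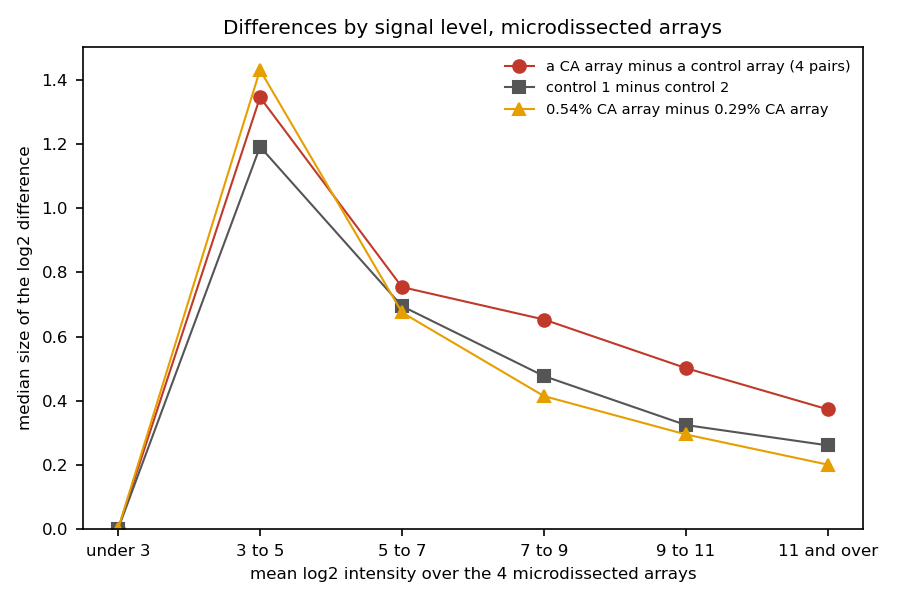
Median size of the log2 difference between 2 microdissected arrays (vertical axis) in bins of the mean normalized log2 intensity (horizontal axis), for the control pair, the CA pair and the 4 pairs of a CA and a control array. In the bin from 3 to 5 the CA pair has the largest median (1.43); from 7 upwards the pairs across treatment have the largest.

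The microdissected effects were then set against those in sections, which have their own controls. Of the 229 bright probe sets called in microdissected liver, 223 (97.4%) moved in the same direction in entire sections, 227 (99.1%) in stained sections, 224 (97.8%) in sections held for the capture time and 175 (76.4%) in dehydrated sections. Over all 1425 bright probe sets the corresponding shares were 70.9%, 80.4%, 73.8% and 50.8%. Of the 229, 170 were also called in the same direction in entire sections, which is 74.2% of the microdissected calls and 41.3% of the 412 bright calls there. With stained sections 200 were shared, 87.3% of the microdissected calls and 44.0% of the 455 bright calls there. Bright probe sets called upward in microdissected liver and downward in either kind of section, or the reverse, numbered 0. These counts stand beside a background, by the same limma fit, of 28.9% of bright probe sets called in entire sections and 31.9% in stained sections. Over all 8318 tested it was 859 (10.3%) and 1011 (12.2%). The lists of calls used the same estimate of the spread for each probe set, so a small spread favours a call in both. The overlap is therefore not one between independent lists.

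Taken from the other side, the bright probe sets called in entire sections moved the same way in microdissected liver in 385 of 412 cases (93.4%). Their median log2 change in the direction of the call was 0.68 in entire sections and 0.70 in microdissected liver. For the 455 called in stained sections the medians were 0.76 there and 0.94 in microdissected liver, with 447 (98.2%) in the same direction. These probe sets were chosen by their change in sections, which favours a large value there. Across the 1425 bright probe sets, the correlation of the microdissected effect was 0.656 with that in entire sections, 0.845 with stained, 0.664 with capture-time and 0.149 with dehydrated sections, which had 1 array per dose. These are descriptions over probe sets on shared arrays, which are not independent replicates.

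**Figure D5:**
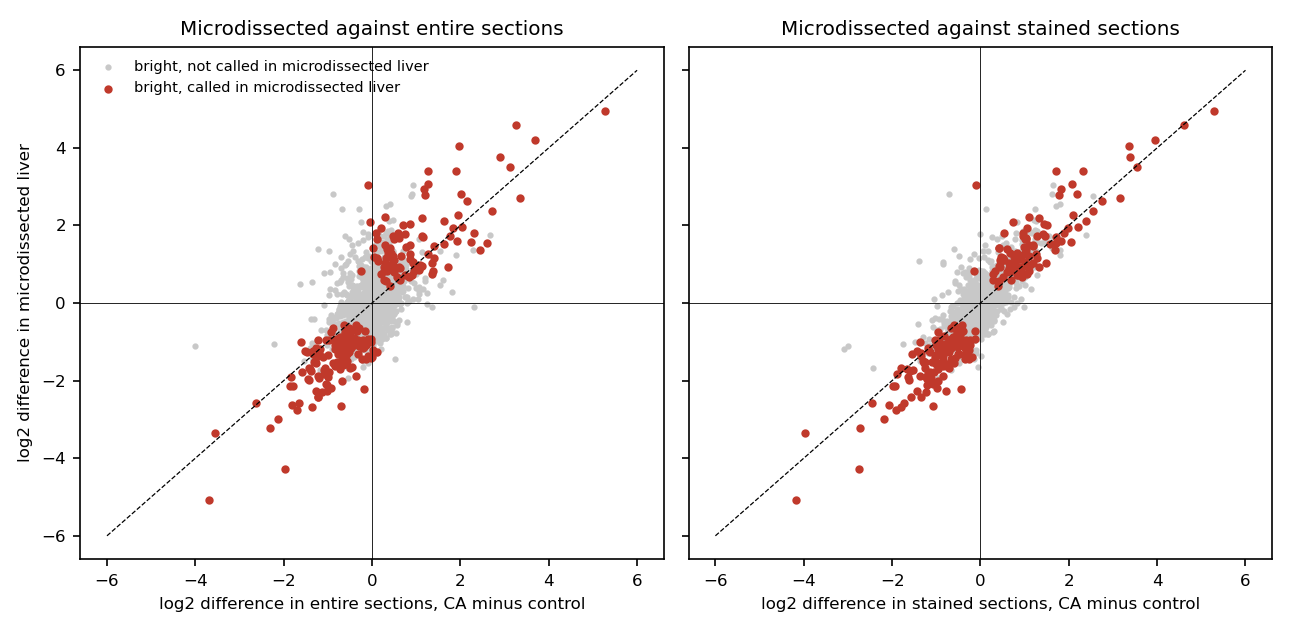
Log2 CA effect in microdissected liver (vertical axes) against that in entire and in stained sections (horizontal axes), with 1 point for each of 1425 bright probe sets and those called in microdissected liver coloured; the dashed line marks equal effects. Of the 229 coloured points, 223 have the same sign in entire and 227 in stained sections.

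The number of bright probe sets whose CA effect differed between microdissected liver and sections, in a test of that difference, depended on the samples that gave the spread. Against entire sections 14 of 1425 did (0.982%), 7 in each direction, beside 468 of all 8318 tested (5.63%, with 2.69% higher and 2.93% lower), of which 416 had a value at the floor. With the spread taken from the microdissected and entire groups alone, 181 bright probe sets differed, 118 higher and 63 lower. With the GAPDH ratio as a covariate, 9 did, 7 higher and 2 lower. Against stained sections 2 did (0.14%), beside 377 of all tested (4.53%, with 2.26% higher and 2.27% lower), of which 350 had a value at the floor. The largest positive differences rested on 1 control array. The probe set m32783cds_i_at read 750 and -76, the latter below background, in the controls and 257 and 286 on the CA arrays, a log2 difference from entire sections of 3.70 ± 1.10 (SE, limma adjusted p = 0.0363) that became -0.21 without control 2. Likewise af073839_s_at read 418 and -12 in the controls and 179 and 320 on the CA arrays. Its log2 difference of 3.13 ± 0.91 (SE, limma adjusted p = 0.0313), and that of 3.13 ± 0.92 from stained sections (0.0362), both became -0.39 without control 2.

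In the negative direction, u39549_at had a larger fall in microdissected liver than in entire sections, with a difference in log2 effect of -2.31 ± 0.68 (SE, limma adjusted p = 0.0327). Its entire-section medians were 205 in controls, 72.5 at 0.29% and 46.5 at 0.54% CA. This difference became -0.44 without the 0.54% array (limma adjusted p = 0.877, range 0.00145 to 0.877 over 16 alternatives, of which 10 lost the call). A fit that included the GAPDH ratio gave -1.84 (limma adjusted p = 0.122). Stained sections showed a 6.71-fold fall of u39549_at, and the difference from them was not called (-1.53 ± 0.68 SE, limma adjusted p = 0.254). The other, aa799276_at, read 424 and 110 in the controls and 19 and 78 on the CA arrays. Both CA arrays lay below both controls, but the 0.29% value was below the noise level, so the fall was at least 3.60-fold. The fitted CA effect was -2.66 ± 0.48 (SE, limma adjusted p = 1.21e-04). In entire sections the medians were 186, 114.5 and 134, and the difference in log2 effect was -1.96 ± 0.53 (SE, limma adjusted p = 0.0189), a call lost in 6 of 16 alternatives (limma adjusted p from 0.00133 to 0.265). Among these was the fit that included the GAPDH ratio, with -1.53 (limma adjusted p = 0.0774). The difference of aa799276_at from stained sections was not called either (-1.57 ± 0.53 SE, limma adjusted p = 0.0832). The remaining call against stained sections was rc_aa892465_at, with 97 and 52 in the controls and 70 and 125 on the CA arrays. These deposited values overlapped, and control 2 was below its noise level of 64. The CA effect of rc_aa892465_at in microdissected liver was itself not called (log2 0.37 ± 0.21 SE, limma adjusted p = 0.279). On the normalized log2 scale the controls read 6.99 and 6.64 and the CA arrays 7.34 and 7.04, without overlap, and the difference of 0.82 ± 0.23 (SE, limma adjusted p = 0.0297) came with a fall of 1.36-fold in stained sections; it was lost in 9 of 21 alternatives.

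The 2 doses could be compared only as 1 array against 1 array, with the spread taken from the other groups. At 0.54% against 0.29% CA, 18 of 1425 bright probe sets were called (1.26%), 8 higher and 10 lower, beside 542 of all 8318 tested (6.52%, with 2.62% higher and 3.9% lower), of which 477 had a value at the floor. With values floored at the noise level of each array, the balance of directions turned: 15 bright probe sets were higher and 3 lower, and over all tested 55 were higher and 19 lower. Since neither dose has a replicate in microdissected liver, the p-values below set 2 arrays against a spread borrowed from other groups, and the values describe these arrays. Among the bright probe sets that rose with CA, the 0.54% array was above the 0.29% array for 64 of 97. Among those that fell, it was below for 84 of 132. Over all bright probe sets the 0.54% array was the higher for 45.7%. Both dose arrays shared the same 2 controls, so their changes from control are not independent.

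The largest fitted dose difference upward was that of u46118_at, which read 312 and 238 in the controls, 8 at 0.29% CA and 121 at 0.54% CA. It fell with CA, with a log2 difference of -3.36 ± 0.54 (SE, limma adjusted p = 2.04e-05), and the 0.54% array was less low than the 0.29% array by a log2 value of 3.07 ± 0.77 (SE, limma adjusted p = 0.00767). The 0.29% value was below the noise level, so the size of this difference, and the fall with CA beyond a bound of at least 3.60-fold, were not measured. In entire sections the medians were 322, 17 and 46.5 at 0, 0.29% and 0.54% CA, and in stained sections 498.5, 22 and 44. The single arrays of dehydrated sections read 51 at 0.29% and 81 at 0.54%, and those of capture-time sections 6 and 65. Most of these values were at background: at 0.29% CA 0 of 8 entire and 0 of 7 stained arrays exceeded their noise level, and at 0.54% CA 3 of 6 and 2 of 5 did. No order of the doses is read from them. The next, rc_aa799778_at, read 533 and 418 in the controls, 113 at 0.29% and 1171 at 0.54% CA. Its 2 CA arrays lay on opposite sides of the controls, with a dose difference of 2.20 ± 0.64 (SE, limma adjusted p = 0.0286). In entire sections its medians were 914 at 0.29% and 1191.5 at 0.54% CA, and in stained sections 1069 and 1022, where the 0.29% arrays spanned 147 to 1707. Dehydrated sections read 1719 and 1056, and capture-time sections 270 and 335. On this deposited scale the 0.54% level was the higher in entire and capture-time sections and the lower in stained and dehydrated ones. The mean normalized log2 values at 0.29% and 0.54% CA were 9.67 and 10.01 in entire and 9.64 and 9.74 in stained sections. The single arrays had 10.48 and 10.12 in dehydrated and 8.81 and 8.66 in capture-time sections. The order in stained and capture-time sections thus depended on the measure used.

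Downward, u39549_at had a dose difference of -3.74 ± 0.88 (SE, limma adjusted p = 0.00380), with the 0.54% value below the noise level. Its stained-section medians were 339 in controls, 115 at 0.29% and 29 at 0.54% CA, where 0 of 5 arrays at 0.54% exceeded their noise level. The other fall, that of af089825_at, went from 516 and 122 in the controls to 117 at 0.29% and 51 at 0.54% CA, with a dose difference of -2.45 ± 0.77 (SE, limma adjusted p = 0.0465). Its 0.29% array was close to the lower control, and its 0.54% array was below the noise level. In entire sections its medians were 212, 175 and 75.5 with increasing dose, and in stained sections 463, 371 and 147, so the level was lowest at 0.54% CA there too. With values floored at the noise level of each array, the log2 dose difference was 1.31 for u46118_at and 2.20 for rc_aa799778_at, and -1.47 for u39549_at and -2.41 for af089825_at, so the order within each direction turned. None of the 4 was then called (limma adjusted p = 0.395, 0.128, 0.536 and 0.187, the highest of 13 alternatives for each). The alternatives that left out a control could not change the dose differences themselves.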

How the data were processed

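RNA of 52 liver samples was hybridised to one-colour oligonucleotide arrays, 1 array per sample. The deposited table lists linear intensities as whole numbers for 8799 probe sets (59 controls) on every array. Which software and scaling the authors used was not given in the sources used here. Many deposited intensities are below 0. On each microdissected array at least 97.8% of the small nonzero values (up to 100 in size) were rounded multiples of 1 step (1.95 to 5.81, tolerance 0.5), as a scale factor applied to whole numbers would give.

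Intensities under 4, the 10th percentile of positive values, were raised to 4, then log2 values were quantile normalized between arrays. Plain intensities in the text are the deposited ones, and log2 and fold values are normalized. Two-sided tests came from limma 3.58.1 (R 4.3.3; lmFit, then eBayes), fitted to 15 groups of preparation and dose, with 37 residual degrees of freedom and Benjamini-Hochberg adjustment over 8318 non-control probe sets above the floor on at least 1 array. The threshold was 0.05. Both doses were averaged with equal weight. Precision is limited by how few arrays there are and by how little most probe sets rise above background. Where a dim group was below the noise level, "at least" folds set the bright group against the noise level on the normalized scale.

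For each comparison the 2 largest bright rises and the 2 largest bright falls are named. Gene and marker lists prepared by symbol were not used, since 0 of 7683 accessions in the probe set IDs matched the RefSeq table. The members, lists and tests were chosen with earlier results of these data known. No 2 arrays held identical values. Alternatives covered scaling, floor, filter, weights, variance prior, minimum change, RNA quality, replicate number, samples fitted and single arrays left out. Plots were drawn with matplotlib 3.10.9 in Python 3.11.15.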

Additional observations from a re-analysis of the deposited data

Results flagged for a closer look

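The CA effect in microdissected liver differed, by a limma test of the difference, from that in entire sections at 468 probe sets, 14 of them bright. The log2 differences of the named ones were 3.70 for m32783cds_i_at, 3.13 for af073839_s_at, -2.31 for u39549_at and -1.96 for aa799276_at. From stained sections it differed at 377 probe sets, 2 of them bright, with 3.13 for af073839_s_at and 0.82 for rc_aa892465_at.

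Single arrays stood apart from the rest of their group in 8 of 36 groups of values tested with Dixon's criterion, which chance alone would meet in about 1 of 20. None of these lay among the microdissected arrays, whose groups are too small for the criterion. In entire sections the highest GAPDH 3'/5' ratio was 6.25 in controls (next 1.92), 5.07 at 0.29% CA (next 2.65) and 6.49 at 0.54% CA (next 2.37). In stained sections the highest 5S rRNA intensity was 232 in controls (next 75) and 241 at 0.29% CA (next 50). For k03249_at the highest normalized log2 value in entire sections at 0.29% CA was 12.34 (next 11.98), and the lowest in stained sections at 0.54% CA was 10.55 (next 11.47). For j02749_at the lowest in entire sections at 0.54% CA was 12.28 (next 12.57).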

How the results depend on the processing

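Counts below are probe sets called by limma, with bright ones in parentheses. For CA against control, 1062 (229) became 311 (98) with median centring, 338 (53) with array weights, 0 (0) with the 4 microdissected arrays alone, 1834 (430) with microdissected and entire groups alone, and 475 (112) with microdissected and stained groups alone. Keeping probe sets above the 75th percentile gave 411 calls, and a floor at the noise level of each array, added after seeing the data, gave 317. Leaving out 1 microdissected array gave 462 to 1131 (129 to 164). The difference from entire sections, 468 (14), became 50 (1) with median centring, 33 (6) above the 75th percentile, 228 (2) with array weights, 1040 (181) without other preparations, 76 with the noise floor, and 9 bright with the GAPDH covariate; leaving out 1 array gave 135 to 768 (5 to 22). The difference from stained sections, 377 (2), became 29 (0) with median centring, 11 (0) above the 75th percentile, 187 with array weights, 168 (0) without other preparations, 41 (5) with the noise floor, and 1 bright with a 2-fold minimum; leaving out 1 array gave 93 to 678 (1 to 13). The dose comparison, 542 (18), became 343 (6) with median centring, 280 with a floor of 20, 50 (7) above the 75th percentile, 1012 (52) with array weights and 74 with the noise floor. Leaving out 1 control gave 587 to 588 (18 to 18), but this cannot change the difference between the dose arrays, only the spread. Neither dose array could be left out of this comparison. The cause of these changes in counts was not tested. Fewer samples or probe sets enter the fits so named, and the spread differed between preparations. Over bright probe sets, the root mean square of the log2 standard deviation within groups was 0.362 in entire and 0.611 in stained sections. It was 0.540 in microdissected liver, from the 2 controls alone.

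Median centring moved the share of higher calls from 44.8% to 56.6% for CA against control, from 49.9% to 89.7% for the difference from stained sections, where it moved the median of all probe sets by 0.15, and from 40.2% to 20.1% for the dose, where that shift was -0.42. Settings for dim values moved these shares too: the filter at the 75th percentile gave 80% for the dose, 27.3% for the difference from entire sections and 18.2% for that from stained sections, and the noise floor 74.3%, 59.2% and 82.9%. The signs of m32783cds_i_at (-0.21) and af073839_s_at (-0.39 against both kinds of section) turned without control 2; leaving out 1 array gave up to 7.61 and 6.65. The labels do not say that replicate numbers pair arrays. Deviations of 37 same-numbered pairs correlated at -0.475 to 0.777 (median 0.072), with 18 over 0.1, so the numbers were not taken as pairs. Those over 0.1 were unevenly spread: 6 of 7 pairs of stained control and 0.29% arrays and 6 of 8 of entire control and 0.29% arrays, but 1 to 2 in each comparison with 0.54% arrays. Of the stained control and 0.29% arrays, 6 of 14 correlated best with their own number, and of the entire ones 6 of 16. In each comparison with 0.54% arrays, 0 to 2 arrays did. Whether same-numbered control and 0.29% arrays share a source was not tested, and the main fit took no account of it. With the replicate number as a block, the counts were 932 (209) for CA against control, 346 (11) and 257 (0) for the differences from entire and stained sections, and 594 (19) for the dose, and the differences of u39549_at and m32783cds_i_at from entire sections had limma adjusted p = 0.0625 and 0.116, that of af073839_s_at 0.119.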
